A study of Mus musculus with 13 samples.

Results

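The troponin genes are the 8 genes that encode the subunits of the calcium switch of striated muscle, and all 8 were found among the 49315 genes counted in the skin of newborn mice. They were chosen by name: *Tnnt1*, *Tnnt2* and *Tnnt3* encode troponin T, *Tnni1*, *Tnni2* and *Tnni3* encode troponin I, and *Tnnc1* and *Tnnc2* encode troponin C. Full-thickness back skin was taken at postnatal day 4 (P4) from 3 WT mice and from 3 *K14Cre+Kctd1fl/flKctd15fl/fl* mice (DKO), 1 library per mouse. In DKO mice both floxed genes are targeted by Cre recombinase under the keratin 14 promoter, which is active in keratinocytes of stratified epithelia. The study describes the WT mice as littermates, and their Cre and floxed alleles are not itemised in the labels. The other 7 libraries of the series, from the epidermis of older mice, hold a count of 0 for every gene and gave no value.

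In striated muscle, troponin C binds calcium, troponin I holds back the interaction of actin with myosin, and troponin T anchors the complex to tropomyosin on the thin filament. Fast fibers use the products of *Tnnt3*, *Tnni2* and *Tnnc2*, slow fibers those of *Tnnt1*, *Tnni1* and *Tnnc1*, and the heart those of *Tnnt2*, *Tnni3* and *Tnnc1*. *Tnnt2* and *Tnni1* are also used by immature skeletal muscle, before fibers take on their adult type. Mouse back skin carries its own sheet of striated muscle, the panniculus carnosus, beneath the dermis.

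The genes lie on 4 mouse chromosomes (GRCm38), and each of the 3 troponin I genes lies near a troponin T gene, with 1 other gene between *Tnni2* and *Tnnt3*, 1 between *Tnni1* and *Tnnt2* and 0 between *Tnni3* and *Tnnt1*. *Tnni2* (ENSMUSG00000031097, chromosome 7, 142441808 to 142444410, plus strand) is 54425 bp from *Tnnt3* (ENSMUSG00000061723, chromosome 7, 142498836 to 142516009, plus strand). *Tnni1* (ENSMUSG00000026418, chromosome 1, 135779434 to 135810989, plus strand) is 25364 bp from *Tnnt2* (ENSMUSG00000026414, chromosome 1, 135836354 to 135852260, plus strand). *Tnni3* (ENSMUSG00000035458, chromosome 7, 4518305 to 4524229, minus strand) is 1922 bp from *Tnnt1* (ENSMUSG00000064179, chromosome 7, 4504570 to 4516382, minus strand). The troponin C genes stand alone: *Tnnc1* (ENSMUSG00000091898) on chromosome 14, 31208312 to 31211729, plus strand, and *Tnnc2* (ENSMUSG00000017300) on chromosome 2, 164777161 to 164779967, minus strand. Of the 800 bp counted for *Tnnc2*, 592 are shared with *Ube2c*, a gene of the cell cycle on the opposite strand, and 86 of the 2063 bp of *Tnni3* are shared with *Dnaaf3* on the same strand.

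RefSeq promoter windows, from 250 bases before a start site to 50 after it on GRCm38.p6, were matched for 6 of the 8 genes, and *Tnni2* and *Tnnt3* had no entry. Those of *Tnnc2*, *Tnni1* and *Tnnt2* are shown because they stand for a fast, a slow and a cardiac gene. Their log2 fold changes of DKO against WT were 0.67, -0.15 and -0.59, and the groups overlapped for *Tnnc2* and *Tnni1*. Capitals mark motif matches: the E-box CANNTG, to which myogenic factors such as MyoD bind, the MCAT core CATTCC, bound by TEAD factors, and the AP-2 motif GCCNNNGGC.
Tnnc2, chr2:164779685-164779984, minus strand: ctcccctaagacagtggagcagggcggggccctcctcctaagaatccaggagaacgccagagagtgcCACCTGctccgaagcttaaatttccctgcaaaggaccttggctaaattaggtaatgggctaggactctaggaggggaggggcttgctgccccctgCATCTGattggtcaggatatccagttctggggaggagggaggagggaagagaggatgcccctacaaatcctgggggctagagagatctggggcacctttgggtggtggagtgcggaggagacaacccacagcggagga
Tnni1, chr1:135799171-135799470, plus strand: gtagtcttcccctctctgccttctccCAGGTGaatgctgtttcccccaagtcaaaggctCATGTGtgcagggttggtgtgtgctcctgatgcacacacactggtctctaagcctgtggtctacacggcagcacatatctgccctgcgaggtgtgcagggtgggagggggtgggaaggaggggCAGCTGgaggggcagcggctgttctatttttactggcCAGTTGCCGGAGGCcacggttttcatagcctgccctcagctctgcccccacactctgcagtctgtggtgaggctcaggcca
Tnnt2, chr1:135836084-135836383, plus strand: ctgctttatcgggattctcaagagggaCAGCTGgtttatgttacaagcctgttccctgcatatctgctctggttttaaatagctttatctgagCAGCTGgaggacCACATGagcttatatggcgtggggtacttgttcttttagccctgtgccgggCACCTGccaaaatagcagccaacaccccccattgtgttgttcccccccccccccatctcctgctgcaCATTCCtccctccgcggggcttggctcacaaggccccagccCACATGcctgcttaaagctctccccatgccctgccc
On both strands, an E-box was found in the windows of all 6 genes: 5 in that of *Tnnt2* shown here, 4 in that of *Tnni1* shown here, 2 each in *Tnnc2*, *Tnnc1* and *Tnnt1*, and 1 in *Tnni3*. E-boxes are common, and 72.3% of the 32851 promoter windows hold one. The MCAT core was found in *Tnnt2* and *Tnnc1* and in 14.7% of all windows. The AP-2 motif, of interest because KCTD1 and KCTD15 are known as inhibitors of AP-2 factors, was found in *Tnni1* and *Tnnc1* and in 16.6% of all windows. In both *Tnni1* and *Tnnc1* it shares 1 base with an E-box. A MEF2 site (3.19% of all windows) and a CArG box (1.63%) were found in 0 windows of these genes. A match gives the letters only, and no binding was measured. The start site used for *Tnni1* lies inside the span counted for that gene.

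The 6 libraries held 11263863 to 17643043 counts on genes, and 3 counts, taken as the floor, correspond to 0.17 to 0.266 CPM, the count scaled to library size. Because reads copied by PCR cannot be recognised in these files, this floor speaks for counting error alone. Every CPM below is scaled by the TMM method of edgeR. *Kctd15* had 48.5, 48.5 and 50.3 CPM in WT and 74.5, 99.4 and 87.3 CPM in DKO skin, and *Kctd1* had 29.2, 27 and 29.1 CPM in WT and 33.3, 64.9 and 48.4 CPM in DKO skin. Both targeted genes were thus higher in every DKO library than in any WT library. Counts per gene, most of whose bases lie outside the floxed exon, do not check the deletion. The study reports from RNA-Seq that the floxed exons of both genes were efficiently removed. For this it names epidermal sheets of mice with either gene targeted, and also DKO mice, but not P4 skin. DKO replicate 1 stood apart. The summed level of 18 genes of the sarcomere and muscle metabolism was 15778 CPM there, against 6912 and 7278 CPM in the other DKO libraries and 4484 to 5169 CPM in WT. Medians and calls of the muscle gene lists are therefore also given without DKO 1. The titles of WT 3 and DKO 1 share one number and those of the other 4 mice another, whose meaning is not stated.

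*Tnnt3* was the most abundant troponin gene of P4 skin and the fast isoform led each family. Levels were compared between genes as CPM per kilobase of counted length. In WT skin they were 50.4 ± 6.3 for *Tnnt3*, 15 ± 1.29 for *Tnni2* and 12 ± 2.82 for *Tnnc2* (SD, n = 3). Next came *Tnnt2* at 2.32 ± 0.382, *Tnni1* at 1.15 ± 0.117, *Tnnt1* at 0.467 ± 0.168, *Tnnc1* at 0.41 ± 0.21 and *Tnni3* at 0.317 ± 0.0672 CPM per kb (SD, n = 3). *Tnni2* (13.9 to 16.4) overlapped *Tnnc2* (8.81 to 14.1), and the ranges of *Tnnt1*, *Tnnc1* and *Tnni3* overlapped one another. The level of *Tnnc2* uses all its 800 counted bp, of which 592 are shared with *Ube2c*. How this affects its place was not tested. The means of DKO skin followed the same order, from 106 ± 37.5 for *Tnnt3* and 35.2 ± 11.7 for *Tnni2* down to 0.184 ± 0.0878 CPM per kb for *Tnni3* (SD, n = 3).

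The place of the lesser isoforms depended on the length used. The counted length of *Tnnt2* is 7752 bp, against 1200 bp for its longest coding transcript, and that of *Tnni1* is 3600 against 1150 bp. Per kilobase of the longest coding transcript, the WT means were 73.9 for *Tnnt3*, 29.2 for *Tnni2*, 15 for *Tnnt2*, 13.7 for *Tnnc2*, 3.6 for *Tnni1*, 0.972 for *Tnnt1*, 0.717 for *Tnni3* and 0.592 for *Tnnc1*. *Tnnt2* and *Tnnc2* changed places, as did *Tnni3* and *Tnnc1*, while *Tnnt3* and *Tnni2* stayed at the top on both scales.

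**Figure D1:**
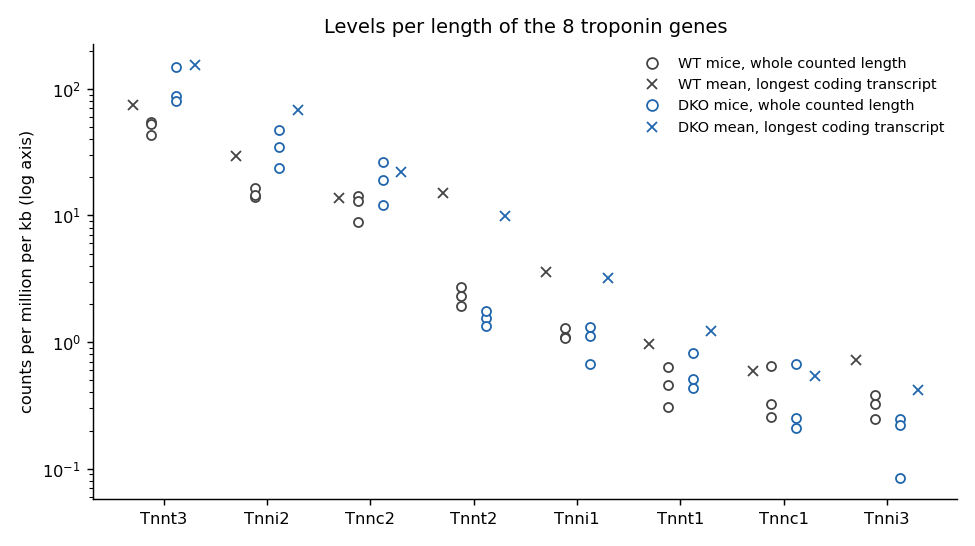
Levels of the 8 troponin genes in CPM per kilobase on a log axis, with 1 open circle per mouse per kilobase of counted length and crosses for the group means per kilobase of the longest coding transcript. *Tnnt3* lies highest in both groups (WT mean 50.4, DKO mean 106 CPM per kb of counted length), and *Tnnt2* is the gene whose level moves most with the length used (WT mean 2.32 or 15).

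The 3 fast genes were higher on average in DKO skin. *Tnnt3*, the fast troponin T, had 87.2, 68.4 and 83.8 CPM in WT replicates 1 to 3 and 235, 139 and 127 CPM in DKO replicates 1 to 3. Every DKO library lay above every WT library, and DKO 1 was the highest. The mean was 2.1-fold higher (log2 fold change 1.07, standard error 0.226). *Tnni2*, the fast troponin I, had 24.5, 20.7 and 21.9 CPM in WT and 70.4, 52 and 35.5 CPM in DKO skin, again without overlap. Its mean was 2.35-fold higher (log2 fold change 1.23, standard error 0.229). In bulk skin, a larger share of muscle in the sample and more troponin RNA per muscle cell cannot be told apart. CPM is relative, so a larger share of muscle does not require more muscle cells. The study reports that P4 DKO skin was thinner, measured from the epidermis down to the panniculus carnosus. The part of this in the troponin values was not tested.

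*Tnnc2*, the fast troponin C, had 11.3, 10.5 and 7.05 CPM in WT and 21.2, 15.1 and 9.57 CPM in DKO skin. Its groups overlapped, because DKO 3 fell below WT 1 and WT 2. The mean was 1.59-fold higher (log2 fold change 0.67, standard error 0.293), and without DKO 1 the log2 fold change was 0.34. *Ube2c*, which shares most of its counted bases, had 36.5 to 40 CPM in WT and 36.5 to 50.6 CPM in DKO skin (log2 fold change 0.14). Whether the counting used the strand is not given in the sources used here, and the part of shared bases in the *Tnnc2* values was not tested.

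The cardiac troponin T gene lay in the opposite direction. *Tnnt2* had 15, 18 and 21 CPM in WT and 12, 13.6 and 10.3 CPM in DKO skin. Every DKO library lay below every WT library, and here DKO 1 lay between the other two. The mean was 1.5-fold lower (log2 fold change -0.59, standard error 0.186), and the log2 fold change was -0.61 without DKO 1. *Tnni3*, the cardiac troponin I, was close to the floor, with 10, 14 and 9 counts in WT and 2, 7 and 7 counts in DKO libraries.

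The slow genes were low in both groups. *Tnni1*, the slow troponin I, had 4.63, 3.91 and 3.89 CPM in WT and 2.42, 4.72 and 4 CPM in DKO skin. The groups overlapped, with DKO 1 the lowest of all 6 and DKO 2 the highest, and the log2 fold change was -0.15 (standard error 0.283). *Tnnt1*, the slow troponin T, had 15, 12 and 25 counts in WT and 11, 25 and 17 counts in DKO libraries (log2 fold change 0.33, standard error 0.427). *Tnnc1*, the troponin C of slow fibers and heart, had 4, 6 and 12 counts in WT and 8, 3 and 4 counts in DKO libraries. Among WT mice, replicate 3 had the most counts of both *Tnnt1* and *Tnnc1*. *Tnni3* and *Tnnc1* did not pass the filter on low counts and were not tested in edgeR.

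**Figure D2:**
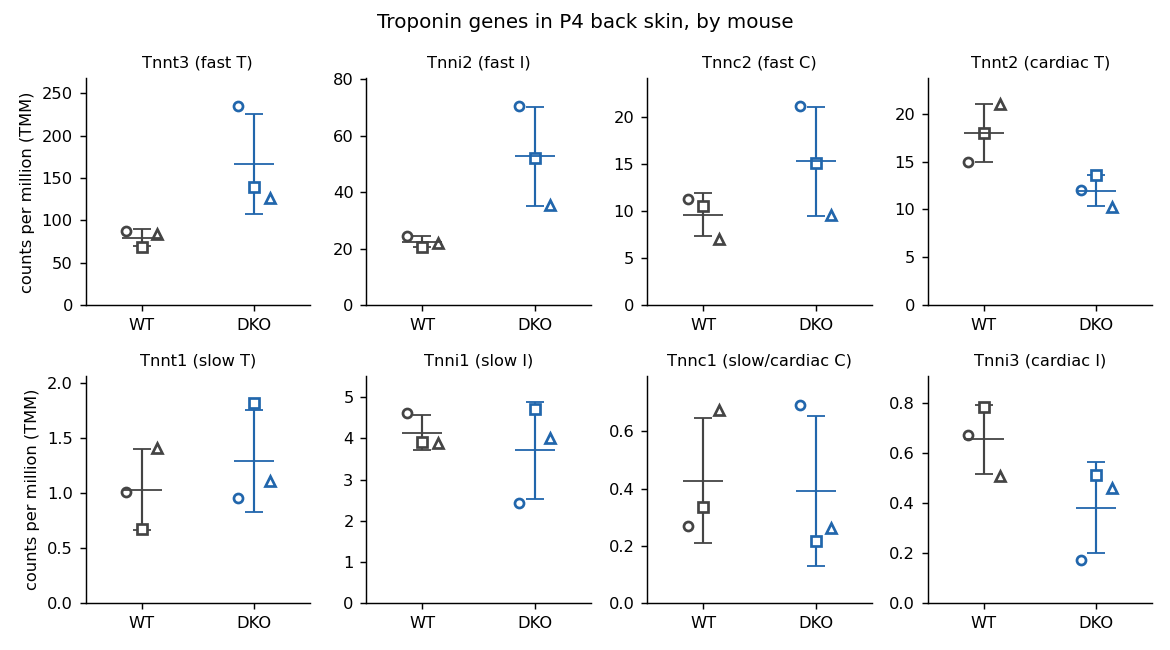
CPM of each troponin gene in the 3 WT and 3 DKO mice (circle, square and triangle for replicates 1, 2 and 3), with the mean (long bar) and SD, each panel on its own axis from 0. *Tnnt3* (at least 127 against at most 87.2 CPM) and *Tnni2* (at least 35.5 against at most 24.5) are higher in every DKO mouse and *Tnnt2* (at most 13.6 against at least 15) is lower, while the other 5 genes overlap.

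Of the 6 troponin genes tested, edgeR's quasi-likelihood test called 0 at an adjusted p under 0.05 (Benjamini-Hochberg) with a log2 fold change past 1 in either direction, where 14 of all 20168 genes tested were called (0.0694%). The smallest adjusted p-values of that edgeR test were 0.146 for *Tnni2* and 0.204 for *Tnnt3*, followed by 0.423 for *Tnnt2* and 0.655 for *Tnnc2*. Before adjustment, 3 of the 6 were under 0.05 on the higher side in edgeR (*Tnni2*, *Tnnt3* and *Tnnc2*), where 4.96% of all genes were, and 1 of the 6 on the lower side (*Tnnt2*), where 2.54% were. DESeq2, which the study names for this comparison, called 2 of the same 6 genes as higher, where it called 96 of 18389 genes (0.522%). These were *Tnni2* (log2 fold change 1.22, adjusted p = 0.000202 in DESeq2) and *Tnnt3* (log2 fold change 1.05, adjusted p = 0.0021 in DESeq2). *Tnnc2* and *Tnnt2* were not called by DESeq2 (adjusted p = 0.571 and 0.248).

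The calls in DESeq2 depended on single mice. Without DKO 1 it called 0 troponin genes, since the log2 fold changes became 0.95 for *Tnni2* and 0.72 for *Tnnt3*, below the threshold on size, although the adjusted p-values of DESeq2 were still 0.00153 and 0.00324. Without WT 2 it called *Tnni2* alone, and without any other single mouse it called both. In edgeR with no filter on low counts both genes were called as well (adjusted p = 0.000122 for *Tnni2* and 0.000293 for *Tnnt3*). Groups that did not overlap were seen on the higher side for 2 of the 6 genes, against 7.24% of all genes, and on the lower side for 1 of 6, against 5.96%. Within the number shared by titles, *Tnni2* was 3.21-fold higher in DKO 1 than in WT 3 and 1.93-fold higher in the mean of the other DKO mice than of the other WT mice, *Tnnt3* was 2.81-fold and 1.71-fold higher, and *Tnnt2* was at 0.574 and 0.724 of its WT level.

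**Figure D3:**
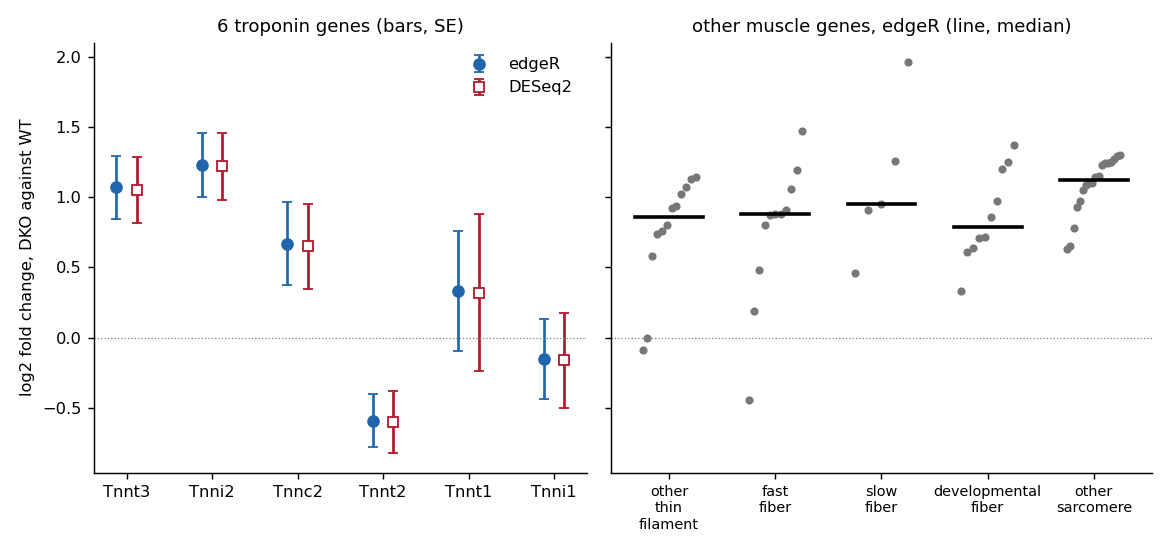
Left, log2 fold change of DKO against WT for the 6 troponin genes tested, by edgeR (filled circles) and DESeq2 (open squares), with bars for the standard error. Right, the edgeR log2 fold change of each tested gene of 5 other muscle lists with the list median as a line: medians with all 6 mice lie between 0.79 and 1.12, where *Tnni2* (1.23) and *Tnnt3* (1.07) also lie close by and *Tnnt2* (-0.59) lies below every other muscle gene shown.

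The other genes of the thin filament, on which troponin sits, mostly lay in the same direction as the fast troponins. Of 12 such genes tested, 10 had higher and 2 lower values in DKO skin. Their median log2 fold change was 0.86, where the median of all genes tested was 0.02. Of these, 0 were called by edgeR, in which 8 of the 12 had an unadjusted p under 0.05, and 4 were called by DESeq2. Without DKO 1 the median was 0.39, still with 10 higher and 2 lower, and DESeq2 called 0. Without WT 1, 2 or 3 it called 2, 2 and 1. *Acta1*, the skeletal muscle actin, had 594 to 692 CPM in WT and 1126 to 2015 CPM in DKO skin (log2 fold change 1.14, standard error 0.221, adjusted p = 0.168 in edgeR and 0.000189 in DESeq2), and its log2 fold change was 0.81 without DKO 1 (adjusted p = 0.041 in edgeR), below the threshold on size. *Tpm2*, a tropomyosin of striated and smooth muscle, had 102 to 118 CPM in WT and 161 to 281 CPM in DKO skin (0.94, standard error 0.193). The more widely used tropomyosin *Tpm1* had 352 to 404 CPM in WT and 318 to 388 CPM in DKO skin (log2 fold change -0.09, standard error 0.132).

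Other fiber type genes were read in the same way. Of 11 fast fiber genes, 10 had higher and 1 lower values in DKO skin (median log2 fold change 0.88), and 2 were called by DESeq2, among them *Atp2a1*, the calcium pump of fast fibers (log2 fold change 1.19, adjusted p = 0.205 in edgeR and 0.000947 in DESeq2), and *Mybpc2*, the fast myosin-binding protein C (1.47, 0.242 and 0.0016). The fast myosin light chains *Myl1* and *Mylpf*, the most abundant of the list per length, had log2 fold changes of 0.91 and 0.88. Without DKO 1, 9 were higher and 2 lower with a median of 0.40, and DESeq2 called 0. It called 1 without DKO 2 and 5 without DKO 3. Of 8 slow fiber genes, the 5 that were tested had higher values (median 0.95), and 1 was called by DESeq2, *Myoz2* (1.26, adjusted p = 0.00256 in DESeq2). Without DKO 1 the median was 0.46 and DESeq2 called 0, as it did without WT 1, while it called 3 without DKO 2 and 2 without DKO 3. *Mybpc1*, the slow myosin-binding protein C, had 102 to 117 CPM in WT and 153 to 313 CPM in DKO skin, and *Sln*, which encodes the pump regulator sarcolipin, had 3.21 to 8.89 and 14.5 to 49 CPM. The 3 slow genes not tested were *Myh7*, *Myl2* and *Myl3*, the slow myosin heavy and light chains, all with few counts and with lower means in DKO skin. *Myh7* had 2, 1 and 15 counts in WT and 0, 0 and 2 counts in DKO libraries. *Myl2* had 1, 0 and 6 counts in WT and 0 in each DKO library, and *Myl3* had 5, 7 and 5 counts in WT and 2, 2 and 5 counts in DKO libraries. WT 3, with the most *Myh7* and *Myl2*, was also the WT library with the most *Tnnt1* and *Tnnc1*.

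Of 11 developmental fiber genes, 10 were tested and these 10 had higher values in DKO skin (median log2 fold change 0.79). Of these, 0 were called by edgeR, in which 6 had an unadjusted p under 0.05, and 1 by DESeq2. Without DKO 1, 9 were higher and 1 lower with a median of 0.48, and DESeq2 called 0. *Myh8*, the perinatal myosin heavy chain, had 469 to 538 CPM in WT and 854 to 2105 CPM in DKO skin (log2 fold change 1.37, standard error 0.312, adjusted p = 0.239 in edgeR and 0.000868 in DESeq2), and its log2 fold change was 0.80 without DKO 1 (adjusted p = 0.0378 in edgeR). *Myh3*, the embryonic myosin heavy chain, had 18.1 to 40.8 CPM in WT and 28.9 to 43.8 CPM in DKO skin, with overlapping groups. *Chrna1*, the alpha subunit of the muscle acetylcholine receptor, had 4.06 to 4.57 and 6.56 to 9.09 CPM. The 18 further genes of the sarcomere and muscle metabolism all had higher values (median log2 fold change 1.12). Of these, 11 were called by DESeq2 and 0 by edgeR, in which 16 had an unadjusted p under 0.05. Without DKO 1 all 18 were still higher, but the median was 0.62 and DESeq2 called 0. Without WT 1, 2 or 3 it called 6, 5 and 3 of them. *Des*, which encodes the muscle intermediate filament desmin, had a log2 fold change of 1.30 (standard error 0.244) and *Actn2*, a Z-disc protein, one of 1.29 (standard error 0.242). *Ttn*, which encodes titin, and *Ckm*, the muscle creatine kinase, had 1.05 and 1.27. Without DKO 1 these 4 values were 0.96 for *Des* (adjusted p = 0.041 in edgeR), 0.92 for *Actn2* (adjusted p = 0.0301 in edgeR), 0.54 for *Ttn* and 0.85 for *Ckm*.

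The balance of slow to fast isoforms was then compared within each library, as a log2 ratio of counts per kilobase that does not depend on scaling between libraries. For troponin I, the ratio of *Tnni1* to *Tnni2* was -3.66, -3.66 and -3.75 in WT and -6.10, -4.72 and -4.41 in DKO libraries. Every DKO library lay below every WT library, by 1.38 on average, so that the fast isoform gained 2.61-fold on the slow one. The two-sided exact permutation p was 0.1, the smallest that 3 mice against 3 allow, and 0.3 after Benjamini-Hochberg adjustment over the 3 ratios. Without DKO 1 the difference was -0.87.

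For troponin T, the ratio of *Tnnt1* to *Tnnt3* was -6.87, -7.09 and -6.34 in WT and -8.36, -6.71 and -7.27 in DKO libraries, which overlapped (difference -0.68, exact permutation p = 0.3, adjusted 0.45). For troponin C, the ratio of *Tnnc1* to *Tnnc2* was -5.61, -5.24 and -3.71 in WT and -5.23, -6.28 and -5.40 in DKO libraries (difference -0.79, exact permutation p = 0.5, adjusted 0.5). It rests on at most 12 counts of *Tnnc1* in a library, and most counted bases of *Tnnc2* are shared with *Ube2c*. Without DKO 1 the troponin T difference was -0.22, and without WT 3 the troponin C difference was -0.22.

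**Figure D4:**
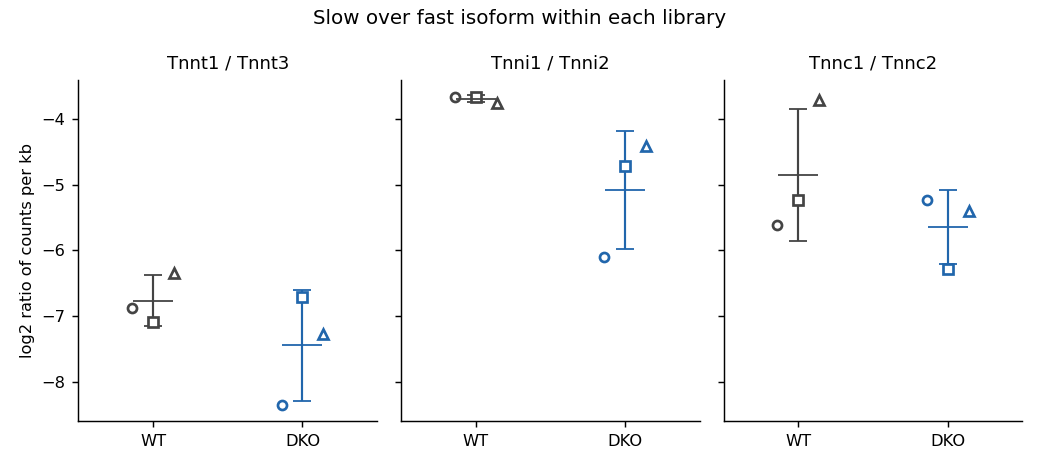
The log2 ratio of the slow to the fast isoform per kilobase in each library, for troponin T, I and C (circle, square and triangle for replicates 1, 2 and 3), with mean and SD. In troponin I the 3 DKO libraries (-6.10 to -4.41) lie below the 3 WT libraries (-3.75 to -3.66), and in troponin T and C the groups overlap.

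As shares of their family per kilobase of counted length, *Tnni2* made up 91.1% ± 0.634 of troponin I in WT and 96.3% ± 1.93 in DKO skin, and *Tnni1* made up 7% ± 0.211 and 3.15% ± 1.56 (SD, n = 3). *Tnnt3* made up 94.7% ± 0.963 and 97.9% ± 0.771 of troponin T, and *Tnnt2* made up 4.41% ± 0.904 and 1.53% ± 0.46 (SD, n = 3). *Tnni3*, on few counts, made up 1.94% ± 0.482 and 0.581% ± 0.366 of troponin I (SD, n = 3). In the shares of all 3 troponin I genes and of *Tnnt2* and *Tnnt3* the groups did not overlap (two-sided exact permutation p = 0.1 each, the smallest possible), whereas they did overlap for *Tnnt1* and for both troponin C genes. Shares within a family are not independent results, since a rise in the leading gene lowers the shares of the others. The CPM of *Tnni1* and of *Tnni3* overlapped between the groups. The size of the *Tnnt2* share depended on the length: per kilobase of the longest coding transcript it was 16.8% ± 3.04 in WT and 6.36% ± 1.83 in DKO skin (SD, n = 3), again without overlap. On that scale *Tnni1* made up 10.8% ± 0.307 and 4.95% ± 2.42 of troponin I (SD, n = 3).

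Each troponin gene was also set against the muscle RNA of its own library, as its log2 CPM minus the median log2 CPM of the 56 tested genes of the 5 other muscle lists. That median was 4.52, 4.25 and 4.52 in WT and 6.05, 4.95 and 4.84 in DKO libraries, 0.85 higher on average and highest in DKO 1, and 0.46 higher without DKO 1. Against it, *Tnnt3* differed by 0.17 (exact permutation p = 0.4), *Tnni2* by 0.33 (exact permutation p = 0.3) and *Tnnc2* by -0.22 (exact permutation p = 0.6), all with overlapping groups. *Tnnt2* stood at -0.60, -0.08 and -0.13 relative to the median in WT and at -2.45, -1.18 and -1.47 in DKO libraries, a difference of -1.43 without overlap. *Tnni1* stood at -2.29, -2.27 and -2.55 in WT and at -4.75, -2.69 and -2.82 in DKO libraries, a difference of -1.05 without overlap. The CPM of *Tnni1* alone overlapped between the groups, with a log2 fold change of -0.15 in edgeR. Because the median itself was higher in DKO libraries, a gene of unchanged CPM would lie lower by 0.85 on this scale. Without DKO 1 it would lie lower by 0.46. Most of the *Tnni1* difference is thus the shift of the median. Relative to the median, *Tnnt2* and *Tnni1* both reached the smallest possible exact permutation p of 0.1, or 0.3 adjusted over 6 genes. Without DKO 1 the differences were -1.05 for *Tnnt2* and -0.39 for *Tnni1*. *Tnnt1* differed by -0.51 with overlapping groups (exact permutation p = 0.6), and by 0.06 without DKO 1.

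**Figure D5:**
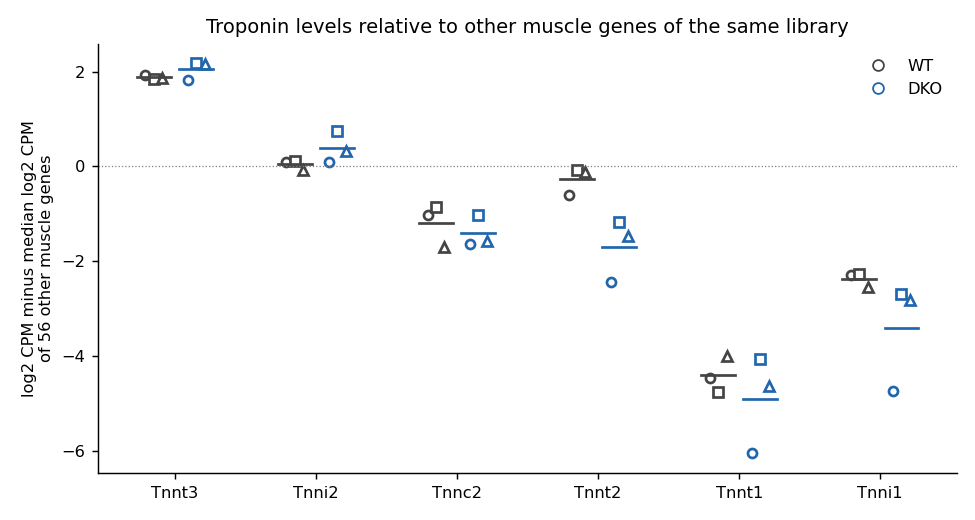
Log2 CPM of the 6 tested troponin genes minus the median log2 CPM of 56 other muscle genes of the same library, with 1 symbol per mouse (circle, square and triangle for replicates 1, 2 and 3) and a line for the group mean. *Tnnt3* and *Tnni2* overlap between the groups (differences of 0.17 and 0.33), whereas *Tnnt2* (-1.43) and *Tnni1* (-1.05) lie lower relative to that median in every DKO library. The median itself is 0.85 higher in DKO libraries, so a gene of unchanged CPM would also lie lower.

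Markers of the heart and of smooth muscle were read beside *Tnnt2*. Of 12 cardiac markers, 2 passed the filter on low counts, *Ryr2*, a calcium release channel, at 6.65 to 7.49 CPM in WT and 8.87 to 11.4 CPM in DKO skin, and *Mybpc3*, the cardiac myosin-binding protein C, at 0.451 to 0.839 and 0.525 to 0.799 CPM. The summed level of the 12 was 9.06 to 10.1 CPM in WT and 10.9 to 16 CPM in DKO libraries, most of it *Ryr2*. *Gata4*, a cardiac transcription factor, had 0 counts in every library, *Nkx2-5* had 1 count in DKO 2 and 0 in the others, and *Myl7*, an atrial myosin light chain, had counts of 3, 11 and 2 for the WT mice against 1, 3 and 0 for the DKO mice. *Nppa*, the atrial natriuretic peptide, had counts of 2, 7 and 6 against 3, 0 and 1. *Tbx5* had counts of 6, 2 and 2 against 20, 8 and 3, and *Tbx20* had 1, 2 and 7 against 9, 3 and 5. *Nppb* had 2, 2 and 4 against 1, 5 and 5. The mean CPM of *Tbx5*, *Tbx20*, *Nppb*, *Myh6*, *Hand1* and *Nkx2-5* was higher in DKO skin, and that of *Myl7*, *Nppa* and *Hand2* was lower. The part of cardiac RNA in the *Tnnt2* values was not tested. Of 9 smooth muscle markers, 7 were higher and 2 lower in DKO skin (median log2 fold change 0.12, or -0.05 without DKO 2), and their summed level was 380 to 426 CPM in WT and 441 to 614 CPM in DKO libraries. *Acta2*, the smooth muscle actin, had 126 to 139 CPM in WT and 116 to 175 CPM in DKO skin (log2 fold change 0.06), and *Synpo2*, an actin-binding protein of smooth and striated muscle, had the smallest p of this list (log2 fold change 0.71, adjusted p = 0.342 in edgeR), followed by *Smtn* (0.53, adjusted p = 0.641 in edgeR).

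Markers of other skin cells were read beside these values. The 8 keratinocyte markers all had log2 fold changes above 0 in edgeR (0.01 for *Trp63* and *Dsg3*, median 0.27, or 3 higher and 5 lower with a median of -0.03 without DKO 2, summed level 6585 to 7030 CPM in WT and 8286 to 10953 CPM in DKO libraries), with *Krt1* at 0.79 and *Krt10* at 0.48. Of 7 hair follicle markers tested, 2 were higher and 5 lower (median -0.33, or -0.06 without DKO 1), with a summed level of 10475 to 12111 CPM in WT and 4251 to 10310 CPM in DKO libraries, lowest in DKO 1, with *Krt71* at -0.73 and *Krt25* at -0.57. Of 5 brown adipocyte markers tested, 1 was higher and 4 were lower (median -0.57), with *Dio2* at -1.10, *Cpn2* at -0.66, *Cidea* at -0.57 and *Zic1* at 0.05. *Ucp1*, also in this list, did not pass the filter on low counts. It had 1, 3 and 1 counts in WT and 14, 4 and 0 counts in DKO libraries. The 8 fibroblast markers were higher (median 0.24, or 5 higher and 3 lower without DKO 1, with *Col1a1* at 0.40, *Col3a1* at 0.31, *Pdgfra* at 0.43 and *Pdgfrb* at 0.38). Of 8 adipocyte markers 5 were higher and 3 lower (median 0.13, with *Car3* at 0.41, *Fabp4* at -0.03 and *Lep* at -0.74), and without DKO 1 all 8 were lower (median -0.29). In these lists of skin cells 0 genes were called by edgeR or DESeq2 with all mice, while DESeq2 called *Lep* and *Dio2* as lower without DKO 1. The lists hold 8, 7, 5, 8 and 8 tested genes in the order given. Of these, 4 on the higher and 3 on the lower side had an unadjusted p under 0.05 in edgeR. Of all genes tested, 4.96% and 2.54% did. *Krt1* had an adjusted p of 0.000868 in DESeq2 with all mice and 0.000556 without DKO 1. Its log2 fold change in DESeq2 was 0.78 in both, below the threshold on size. The part of tissue composition in the troponin values was not tested.

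Of the 5 genes most like the fast troponins, 3 were in the other muscle lists, which hold 56 tested genes. Likeness was measured as the root mean square difference between the log2 CPM of a gene and the mean of *Tnnt3*, *Tnni2* and *Tnnc2*, each centred on its mean over the 6 libraries, among 18616 genes with a mean of at least 1 CPM. The 5 nearest were *Wfdc1* (0.0818), *Camk2a* (0.0909), *Tpm2* (0.0912), the calcium release channel *Ryr1* (0.0918) and *Actn3*, the fast fiber alpha-actinin (0.0949), where the median gene differed by 0.605. By the same measure *Tnni2* was at 0.134, *Tnnt3* at 0.145 and *Tnnc2* at 0.228 from their own mean, and *Tnnt1*, *Tnni1* and *Tnnt2* were at 0.633, 0.787 and 0.833. The fast genes are part of that mean, which by itself brings them closer to it. The genes nearest to the mean of the slow genes *Tnnt1*, *Tnni1* and *Tnnc1* were *D10Jhu81e*, *Gm2366*, *Prps1*, *Ptgs1* and *4930562C15Rik* (0.0375 to 0.0777), none of which is in a muscle list, and the median gene differed by 0.315. *Tnnt1* and *Tnni1*, which are part of that mean, were at 0.315 and 0.379 from it. It also includes *Tnnc1*, which had at most 12 counts in a library. The points of this measure are 6 libraries of 2 genotypes, and it is given as a description.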

How the data were processed

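Counts were read for 6 libraries of full-thickness back skin at P4, 3 WT and 3 DKO, grouped by their labels. After rRNA depletion, the authors sequenced paired-end reads, which were trimmed (Trimmomatic 0.36), aligned to GRCm38 (STAR 2.5.2b) and assigned to annotated genes (featureCounts, Subread 1.5.2). The deposited values are these raw counts for 49315 genes, of which 48970 matched a gene symbol. How strand and multimapping reads were treated is not given in the sources used here. The 7 epidermis libraries hold 0 counts throughout and were not analysed.

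The fits were made with edgeR 4.0.16 in R 4.3.3 (filterByExpr, TMM, quasi-likelihood F test, Benjamini-Hochberg adjustment over 20168 genes). A gene was called at the thresholds of the study, an adjusted p under 0.05 with a log2 fold change past 1 in either direction. Standard errors are the log2 fold change over the square root of F. DESeq2 1.42.0, named in the study, was run as an alternative. Ratios and relative levels used a pseudocount of 0.5 and two-sided exact permutation tests over the 6 mice (scipy). Depth was 11263863 to 17643043 counts, of which *Tnni3*, *Tnnc1* and *Tnnt1* had at most 25 in any library. P-values measure the spread between mice, 1 library each. The fits were tested on simulated data.

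The members, the gene lists and the comparisons were chosen with earlier results of these data known. Genes named are all 8 troponins, the 2 members of each list highest per length and the 2 with the smallest p in edgeR, the 5 genes nearest to the fast and the slow troponins, and the targeted genes. One further marker list is not reported here. *Gata4*, *Nkx2-5*, *Nppa*, *Nppb*, *Tbx5*, *Tbx20*, *Myh6*, *Hand1*, *Hand2*, *Ucp1*, *Trp63*, *Dsg3*, *Myh7*, *Myl2*, *Myl3* and *Ube2c* were named after their values were seen. Other settings tried were RLE size factors, total counts, no filter, at least 10 counts in every library, library sizes without muscle genes, the number shared by titles as a block, no threshold on the fold change, a pseudocount of 2, other muscle references and each mouse left out. DESeq2 with each mouse left out, the gene lists with each mouse left out and the transcript length were added after seeing the data.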

Additional observations from a re-analysis of the deposited data

How the results depend on the processing

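The 6 log2 fold changes kept their direction in edgeR and DESeq2 under every setting run, except that of *Tnni1*, which was 0.06 without DKO replicate 1 in both tools and -0.34 without DKO replicate 2 in edgeR, the ends of its range with a mouse left out. The count of troponin genes called was 0 in edgeR with RLE factors, total counts, the stricter filter, library sizes without muscle genes, no threshold on the fold change, the block and each mouse left out. It was 2 in DESeq2 and 2 with no filter, and 0 to 2 in DESeq2 with each mouse left out. Over all genes, calls went from 14 (8 higher, 6 lower) to 152 in DESeq2, 210 with no filter, 22 with total counts (10 higher, 12 lower) and 21 with library sizes without muscle genes (9 higher, 12 lower). Leaving out each mouse gave 2 to 36 calls in edgeR (36 without DKO 1, 33 without DKO 2, 2 without WT 2 or WT 3) and 65 to 207 in DESeq2 (68, 65 and 71 without WT 1, 2 and 3, and 66, 207 and 171 without DKO 1, 2 and 3). With the number shared by titles as a replicate block, 35 genes and 0 troponins were called, with adjusted p = 0.0686 for *Tnnt3* and 0.0701 for *Tnni2* in edgeR. The labels do not say that this number marks a pairing. The slow to fast difference of troponin I lay between -0.87 and -1.72 over all settings. The level of *Tnnt1* relative to the other muscle genes was between -0.94 and 0.06 with a mouse left out, the latter without DKO replicate 1, against -0.51 with all mice. Scalings moved the median of all genes by at most 0.04. Why these counts differ between settings was not tested, beyond the fewer mice where one was left out. Depth limits *Tnni3*, *Tnnc1* and *Tnnt1*, which had at most 25 counts in any library.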

Other observations

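Genes beside the troponins were read within 100000 bp. Between and next to *Tnni2* and *Tnnt3* on chromosome 7 (GRCm38), *H19*, a long noncoding RNA abundant in fetal muscle and other growing tissues, had 1184, 1167 and 1288 CPM in WT and 3809, 2265 and 1802 CPM in DKO skin (log2 fold change 1.11, adjusted p = 0.234 in edgeR and 0.0015 in DESeq2). *Prr33*, whose span overlaps that of *Tnnt3* on the other strand with 0 shared exon bases, had 3.49, 3.8 and 3.38 CPM in WT and 10.6, 6.54 and 4.66 CPM in DKO skin, without overlap between the groups (log2 fold change 1.02, adjusted p = 0.384 in edgeR and 0.153 in DESeq2). *Lsp1*, which lies between *Tnni2* and *Tnnt3* and encodes a protein of leukocytes, had 14.7, 18.1 and 23.6 CPM in WT and 39.6, 25.4 and 19.7 CPM in DKO skin (log2 fold change 0.58, adjusted p = 0.673 in edgeR). *Mrpl23*, a mitochondrial ribosomal protein gene beyond *Tnnt3*, had a log2 fold change of 0.04.

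Between *Tnni1* and *Tnnt2* on chromosome 1, *Lad1*, which encodes a protein of the epidermal basement membrane, had 276, 258 and 251 CPM in WT and 150, 330 and 214 CPM in DKO skin (log2 fold change -0.18, adjusted p = 0.944 in edgeR). *Pkp1*, a desmosome gene beyond *Tnnt2*, had a log2 fold change of 0.05, and *Csrp1* and *Phlda3* before *Tnni1* had 0.16 and 0.06. *Ppp1r12c* beside *Tnnt1* on chromosome 7 had a log2 fold change of 0.41 (adjusted p = 0.495 in edgeR). These neighbours were named after their values were seen.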
